A study of Mus musculus with 6 samples.

Results

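Lysosomal hydrolases, lysosomal membrane proteins and the factors that switch on their genes were followed in the kidneys of mice given cationic polystyrene nanoparticles. The set holds 43 genes, listed by symbol and all found in the deposited tables, out of 57180 listed gene IDs. It was chosen by function, with earlier results of these data known. It has 9 proteases, 11 glycosidases, 5 sulfatases, 6 lipid hydrolases and sphingolipid activators and 9 membrane proteins. Progranulin and the transcription factors TFEB and TFE3 complete it. The nanoplastic group was 3 male wildtype C57BL/6J mice given 200 mg/kg of the particles by mouth each day for 6 weeks. The vehicle group was 3 such mice given deionized water (0 mg/kg). All were 7 weeks old at purchase, and each kidney sample was sequenced as 1 library of total RNA, so replicates are separate animals. A whole-kidney sample mixes tubule, vessel, glomerular and immune cells, and fewer cells of a type and less RNA per cell cannot be told apart in it.

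Lysosomes are acidic organelles that take apart proteins, glycans, lipids and nucleic acids delivered by endocytosis and autophagy. Most soluble lysosomal enzymes carry a mannose 6-phosphate tag that routes them there, and heavily glycosylated proteins such as LAMP1 and LAMP2 line the membrane. TFEB and its relative TFE3 are basic helix-loop-helix factors that bind E-box DNA containing CACGTG near many lysosomal genes. In the kidney, proximal tubule cells take up filtered proteins through megalin and cubilin and degrade them in abundant lysosomes, and inherited loss of several of these genes damages the kidney, as with Ctns in cystinosis and Gla in Fabry disease.

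The nanoplastic libraries held 23585274, 23793640 and 19408534 expected counts, and the vehicle libraries held 26292760, 23748774 and 23420454. The 43 genes together took 0.791%, 0.813% and 0.755% of the counts in nanoplastic mice 1, 2 and 3, against 0.795%, 0.781% and 0.782% in vehicle mice 1, 2 and 3. Counts per gene and library ran from 103 for Arsa in nanoplastic 3 to 39258 for Psap in vehicle 1, and all 43 genes passed the filter on low counts. Nanoplastic 1 and vehicle 3 stood apart by fat cell transcripts: Adipoq, which encodes adiponectin, had 444 counts in nanoplastic 1 and 130 in vehicle 3, and the remaining 4 libraries had no more than 2. Nanoplastic 1 also held more urothelial transcripts: Upk1b, a uroplakin, had 187 counts there and 15 to 51 in the other libraries. Aqp2, the water channel of collecting duct, had 3663 there and 887 to 1509 in the other libraries. The other collecting duct markers did not all follow Aqp2. In nanoplastic 1 Hsd11b2 was highest (345 counts) and Atp6v1g3 lowest (493), while Scnn1g (850) and Slc4a1 (556) lay within the range of the other libraries. The part of these transcripts in the lysosomal values was not tested. The tissue label was checked by its markers: Kap, an androgen-regulated protein of proximal tubule, averaged 24720 TPM, Slc34a1, a phosphate transporter, 913 TPM, and Umod, of the thick ascending limb, 765 TPM. Of the proximal tubule markers, 12 of 12 passed the filter and none was at 0. They summed to 39836, 45699 and 47307 CPM (counts per 1e6, scaled by TMM) in nanoplastic mice 1, 2 and 3, and to 48023, 48430 and 45801 CPM in vehicle mice 1, 2 and 3. Their mean log2 CPM less the vehicle mean was -0.178 in nanoplastic 1, the lowest of the 6 libraries.

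No lysosomal gene of the 43 passed the test of nanoplastic against vehicle kidneys. Of the 43, 0 had a Benjamini-Hochberg adjusted p under 0.05 in edgeR's quasi-likelihood test, where 0.00% of all 18092 genes tested were called, and the lowest adjusted p in the set was 0.541, for Smpd1, acid sphingomyelinase. DESeq2 and limma-voom also called 0 of the 43. Over all genes edgeR and limma-voom called 0, DESeq2 called 55, and 1342 had an unadjusted p under 0.05 in edgeR. At an unadjusted p under 0.05 edgeR had 4 of 43, or 9.30%, against 7.42% of all genes tested. All 4 were lower in nanoplastic kidneys: Smpd1, Gusb, Laptm4b and Glb1. Among all genes 3.61% reached that level in the lower direction and 3.80% in the higher one. The count moved with the processing. Scaled by library size alone, edgeR had 3 of the 43 under 0.05 (1419 of 18092 genes tested). On deposited TPM limma had 1 of the 43 (968 of 18092). In both, the lowest p of the 43 belonged to Neu1, which was higher in nanoplastic kidneys. Without vehicle 2 edgeR had 0 of the 43 (762 of 18647).

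The measurements bounded the changes closely. For 42 of 43 genes the 95% interval left out both a 1.5-fold increase and a 1.5-fold decrease, the exception being Gusb. Over all genes tested that share was 63.6%. The log2 fold changes, nanoplastic over vehicle, ran from -0.34 to 0.17 with a median of -0.04, while the median of all genes tested was 0.01. In the fit scaled by TMM 28 of 43 values were negative (65.1%, against 48.0% of all genes tested), but scaled by library size alone 21 were (all genes 36.2%) and in deposited TPM 17 were (all genes 33.6%). Those scalings moved all genes, whose median log2 fold change was 0.05 by library size and 0.07 in TPM, while the median of the 43 was 0.00 and 0.04. The number of the 43 below the median of all genes was 29 with TMM, 29 by library size and 26 in TPM.

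**Figure D1:**
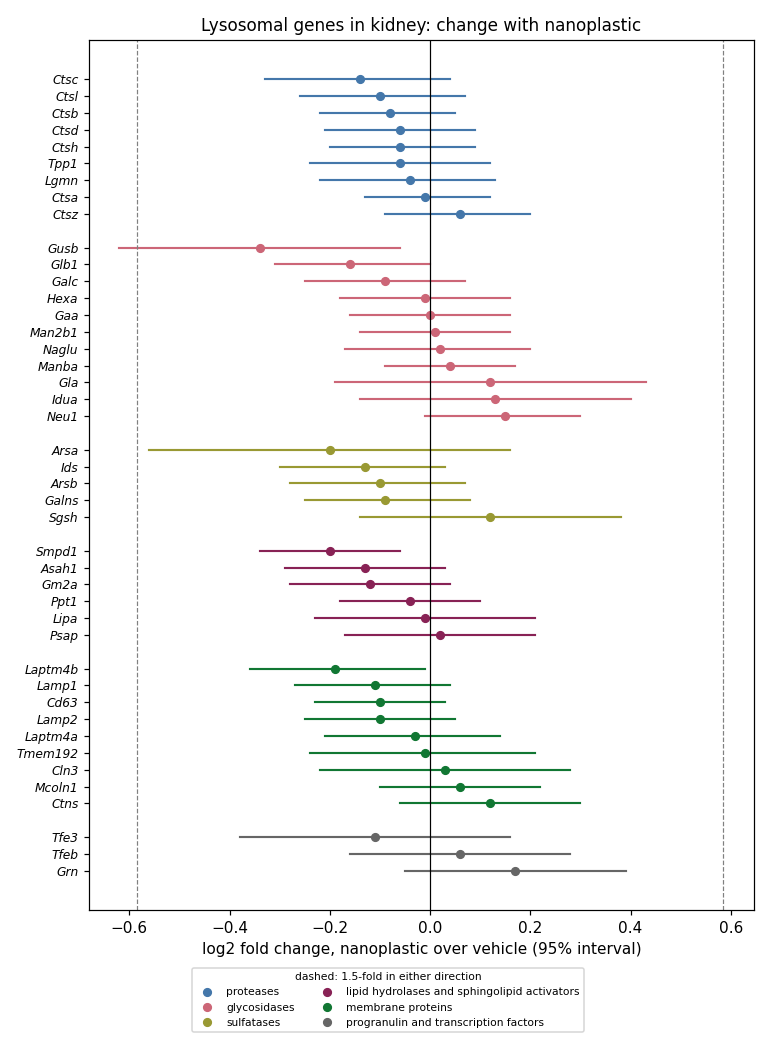
Log2 fold change of nanoplastic over vehicle for the 43 genes with 95% intervals (points and bars, n = 3 mice each), grouped by role, with dashed lines at 1.5-fold up and down. The points lie between -0.34 and 0.17, and the intervals reach lowest for Gusb (-0.62) and Arsa (-0.56) and highest for Gla (0.43).

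In CPM, nanoplastic and vehicle values were fully separate in 8 of 43 genes (18.6%), against 12.9% of all genes tested. In 6 of these nanoplastic was lower, against 6.32% of all genes: Ctsb, Ctsc, Glb1, Smpd1, Lamp1 and Cd63. In 2, Neu1 and Idua, nanoplastic was higher, against 6.54% of all genes. In deposited TPM only Smpd1 and Neu1 of these genes stayed separate, and the share of all genes was not counted. The average over the 43 genes of log2 CPM, less its vehicle mean, came to -0.071, -0.006 and -0.047 for nanoplastic mice 1, 2 and 3, and to 0.011, 0.014 and -0.025 for vehicle mice 1, 2 and 3. Nanoplastic 2 therefore lay above vehicle 3, and the group averages overlapped. The lowest of the 6 libraries was nanoplastic 1 for 14 of the 43 genes and nanoplastic 3 for 13. Among all 18092 genes tested nanoplastic 1 was the lowest for 3508 and nanoplastic 3 for 3205.

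**Figure D2:**
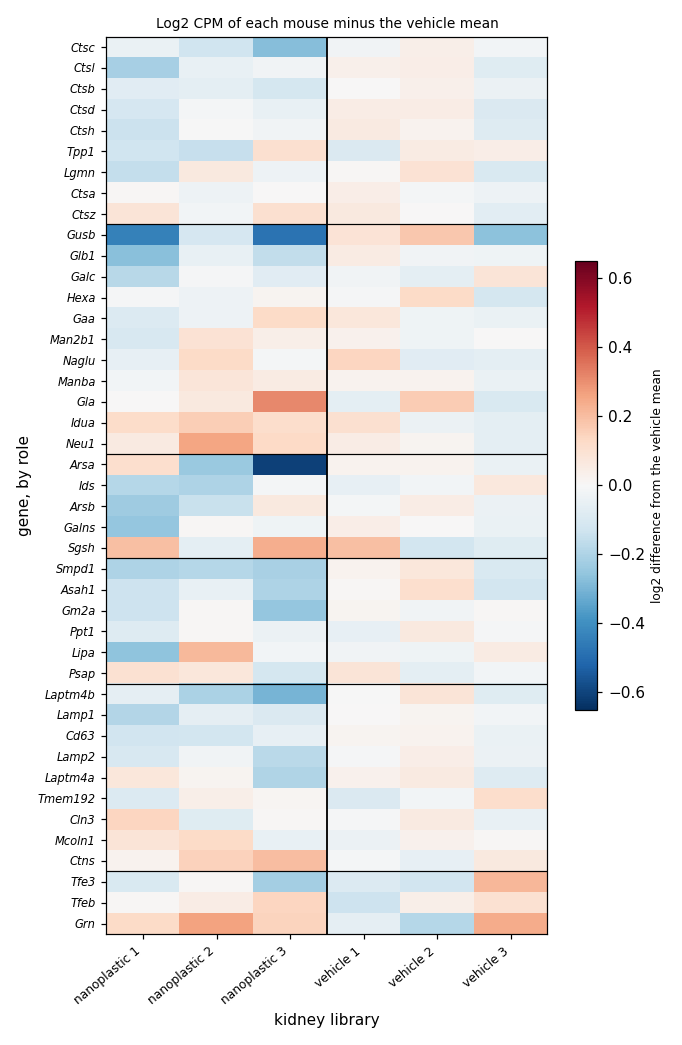
Log2 CPM of each of the 43 genes (rows, by role) in each kidney library (columns, nanoplastic left) minus the mean of the 3 vehicle libraries. Most cells are close to 0, the lowest being Arsa in nanoplastic 3 (-0.607), and no column is of 1 colour throughout.

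The promoters of these genes carried the TFEB-type E-box often, and they are shown because TFEB and TFE3 are known to act on many of these genes. RefSeq promoter windows (build GRCm38.p6, from 250 bases before to 50 after a start site) were found for 38 of the 43 genes, and none was found for Ctsb, Ctsh, Galns, Asah1 and Laptm4b. Of the 38 genes, 13 held CACGTG (34.2%), against 8.09% of all 27025 genes in the table. Counting only copies that continue as TCACGTG on either strand, 12 of the 38 held it (31.6%), against 4.29% of all genes. CACGTG reads the same on both strands, and TCACGTG contains it. There were 21 copies of CACGTG in the 13 genes, 20 of them before the start site and 16 within the 150 bases before it. Lamp1, the main lysosomal membrane glycoprotein, held 4 copies, Arsa, Ctsl, Gaa, Glb1, Lgmn, Naglu and Sgsh held 1 each, and Cln3, Ctsa, Ctsd, Gla and Mcoln1 held 2 each. The stretches below show copies in capitals, the flanking T or A included where present, in genes that represent a membrane protein, a channel, a protease, the stabilizing partner of an enzyme complex and a glycosidase:
Lamp1: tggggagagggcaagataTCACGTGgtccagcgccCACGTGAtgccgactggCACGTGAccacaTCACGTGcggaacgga
Mcoln1: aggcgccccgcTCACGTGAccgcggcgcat
Ctsd: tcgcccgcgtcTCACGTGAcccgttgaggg
Ctsa: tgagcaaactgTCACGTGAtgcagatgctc
Gla: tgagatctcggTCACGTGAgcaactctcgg
The Lamp1 stretch is the 80 bases before the start site, on the plus strand at chr8:13159081-13159160. The others are windows of 30 bases: Mcoln1 on the plus strand at chr8:3500462-3500491, Ctsd on the minus strand at chr7:142387908-142387937, Ctsa on the plus strand at chr2:164833749-164833778 and Gla on the minus strand at chrX:134601182-134601211. All coordinates are those of GRCm38.p6, while the counts were made on GRCm39.

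Genes with and without the motif had overlapping values in the comparison of the groups. The 13 genes with CACGTG had a median log2 fold change of -0.01 (range -0.20 to 0.12, 7 negative), and the 25 with a window but no copy had a median of -0.03 (range -0.34 to 0.17, 16 negative). Among the genes whose libraries did not overlap or whose unadjusted p was under 0.05, Glb1 and Lamp1 had copies, Smpd1, Gusb, Neu1, Ctsc, Cd63 and Idua had none in the window, and Ctsb and Laptm4b had no window. The 150 bases before the start site are shown for Glb1, Neu1, Smpd1 and Gusb, again with copies in capitals:
Glb1: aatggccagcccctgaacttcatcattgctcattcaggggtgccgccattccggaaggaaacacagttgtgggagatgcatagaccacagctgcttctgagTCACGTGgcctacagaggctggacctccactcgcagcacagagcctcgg
Neu1: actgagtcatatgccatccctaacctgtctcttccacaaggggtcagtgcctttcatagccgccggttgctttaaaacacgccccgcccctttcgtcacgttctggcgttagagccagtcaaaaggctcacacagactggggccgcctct
Smpd1: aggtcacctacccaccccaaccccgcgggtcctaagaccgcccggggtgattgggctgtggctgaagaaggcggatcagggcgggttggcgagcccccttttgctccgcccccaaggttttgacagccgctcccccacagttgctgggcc
Gusb: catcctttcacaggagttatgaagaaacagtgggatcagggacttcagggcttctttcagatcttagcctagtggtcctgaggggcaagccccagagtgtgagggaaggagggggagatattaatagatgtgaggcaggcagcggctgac
These lie at chr9:114400928-114401077 (plus strand), chr17:34931103-34931252 (plus), chr7:105554210-105554359 (plus) and chr5:130003050-130003199 (minus) of GRCm38.p6. A match describes these letters and not a bound site, and a window without one says nothing of binding elsewhere.

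The transcription factors themselves were measured at low levels. Tfeb had 13.6, 13.98 and 14.9 CPM in nanoplastic mice 1, 2 and 3, against 12.3, 13.9 and 14.5 CPM in vehicle mice 1, 2 and 3 (log2 fold change 0.06, SE 0.10). Tfe3 had 10.7, 11.5 and 9.83 CPM in nanoplastic mice, against 10.8, 10.5 and 13.3 CPM in vehicle mice (log2 fold change -0.11, SE 0.12). The groups overlapped in both genes, and the highest Tfe3 value was that of vehicle 3, without which its log2 fold change was 0.01 (it was 0.18 in deposited TPM). TFEB and TFE3 are controlled mainly by phosphorylation and movement into the nucleus, which transcript levels do not measure. Grn encodes progranulin, a secreted protein that reaches lysosomes and is split there into granulins. It had 70.05, 77.1 and 71.1 CPM in nanoplastic mice, against 61.8, 56.6 and 76.1 CPM in vehicle mice (log2 fold change 0.17, SE 0.10, edgeR adjusted p = 0.735). Vehicle 3 was high among the vehicle libraries and lay within the nanoplastic range. Without vehicle 3 and nanoplastic 1, the libraries with fat cell transcripts, Grn had the lowest p of the 43 genes, with a log2 fold change of 0.33 (edgeR adjusted p = 0.205).

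Among the proteases 8 of 9 values were negative and 0 passed, with a median log2 fold change of -0.06 and a range of -0.14 to 0.06, while in deposited TPM the median was 0.01 against 0.07 for all genes. Ctsc encodes the dipeptidyl peptidase that activates granule proteases of leukocytes, and it had the lowest p of the proteases. It measured 23.96, 22.6 and 20.4 CPM in nanoplastic mice 1, 2 and 3, against 24.4, 25.4 and 24.4 CPM in vehicle mice (log2 fold change -0.14, SE 0.08, edgeR adjusted p = 0.725). The groups did not overlap, with nanoplastic 1 close to the vehicle values and nanoplastic 3 the lowest. Ctsb, a broadly acting cysteine protease, had 366, 369 and 355 CPM in nanoplastic mice, against 386, 394 and 375 CPM in vehicle mice. Its groups did not overlap either, and its estimated change was -5.7% (95% interval -13.9% to 3.4%). In a GENCODE annotation of the build before GRCm39 its exons share bases with those of Fdft1 on the opposite strand.

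Ctsd, the aspartic protease of lysosomes, measured 484, 517 and 505 CPM in nanoplastic mice 1, 2 and 3, against 541, 540.2 and 489.7 CPM in vehicle mice. Ctsl, the cysteine protease most abundant per transcript length here, measured 392, 440.2 and 447 CPM in nanoplastic mice, against 466, 469.8 and 431 CPM in vehicle mice. Lgmn, the asparagine-specific protease that processes several cathepsins, measured 432, 503 and 469.5 CPM in nanoplastic mice, against 484, 513 and 449 CPM in vehicle mice. In all 3 genes nanoplastic 1 was the lowest library, vehicle 3 was the lowest of the vehicle libraries, and the groups overlapped. Ctsh, an aminopeptidase, Tpp1, the tripeptidyl peptidase lost in a childhood neuronal storage disease, and Ctsz, a carboxypeptidase, stood at log2 fold changes of -0.06 for Ctsh (SE 0.07), -0.06 for Tpp1 (SE 0.08) and 0.06 for Ctsz (SE 0.07).

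The glycosidases held both the lowest and the highest of the changes among the hydrolases, with 4 of 11 negative, 0 passing and a median log2 fold change of 0.01. Gusb (ENSMUSG00000025534), which encodes beta-glucuronidase, had 28.6, 36.03 and 27.8 CPM in nanoplastic mice 1, 2 and 3, against 41.3, 43.9 and 32.3 CPM in vehicle mice. The means were 30.8 ± 4.53 CPM in nanoplastic and 39.1 ± 6.08 CPM in vehicle mice (SD, n = 3 each), a log2 fold change of -0.34 (SE 0.13, edgeR adjusted p = 0.604). The groups overlapped, because vehicle 3 lay below nanoplastic 2, and both groups had a wide spread. With 1 library left out at a time its log2 fold change ran from -0.47 to -0.25.

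Cathepsin A, beta-galactosidase and the sialidase NEU1 form a complex in which cathepsin A protects the other two enzymes. None of their transcripts passed the test. Glb1 (ENSMUSG00000045594) encodes the beta-galactosidase whose activity is stained as a sign of senescence. It had 134, 156 and 144 CPM in nanoplastic mice 1, 2 and 3, against 167, 159 and 158 CPM in vehicle mice. The groups did not overlap, with nanoplastic 2 just below the lowest vehicle library, and the estimated change was -10.3% (95% interval -19.4% to -0.1%, edgeR adjusted p = 0.670). In the same annotation of the earlier build an exon of Glb1 shares bases with the gene Tmppe on the same strand. Where the annotation used for counting has this overlap, the division of reads between them is estimated.

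Neu1 (ENSMUSG00000007038) had 389, 446 and 408 CPM in nanoplastic mice 1, 2 and 3, against 386, 378 and 357 CPM in vehicle mice. The groups did not overlap, but nanoplastic 1 was only just above vehicle 1, and the estimated change was 10.8% (95% interval -0.7% to 23.5%, edgeR adjusted p = 0.687). Ctsa had 179, 174 and 178 CPM in nanoplastic mice, against 183, 176 and 174 CPM in vehicle mice (95% interval of the change -8.9% to 8.8%). In CPM, Ctsa had the smallest spread over the 6 libraries of all 43 genes, a coefficient of variation of 2.06%. In deposited TPM it ran from 57.5 to 72.9.

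**Figure D3:**
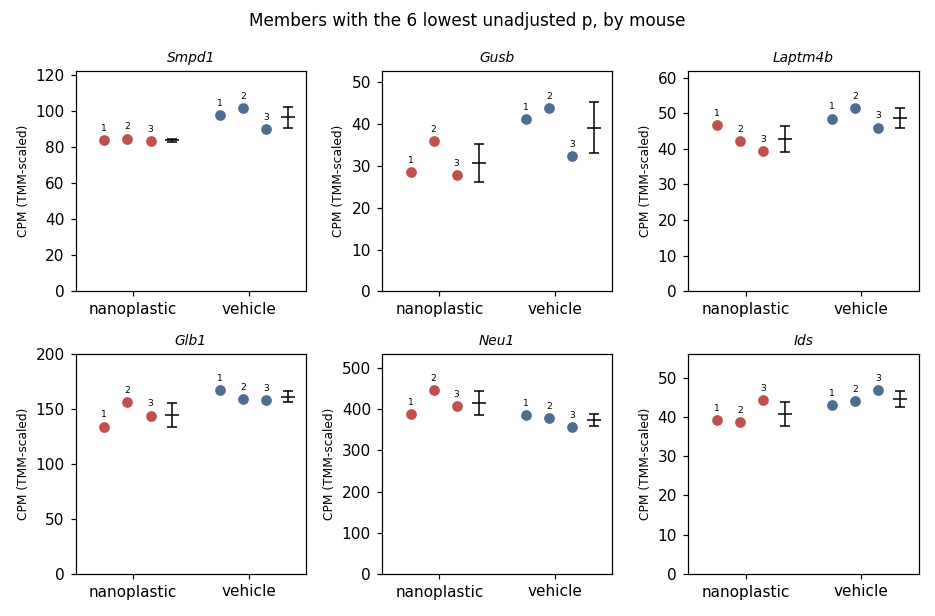
CPM scaled by TMM in each mouse (numbered points, nanoplastic left of vehicle) for the 6 genes with the lowest unadjusted p, with the mean and SD as bars beside them and axes from 0. The groups do not overlap for Smpd1, Glb1 and Neu1 and overlap for Gusb, Laptm4b and Ids.

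The other glycosidases lay closer to no change or were measured less closely. Gla, alpha-galactosidase A, had the lowest mean of the 43 genes per transcript length, overlapping that of Idua over the libraries, with 6.13, 6.39 and 7.59 CPM in nanoplastic mice 1, 2 and 3, against 5.85, 6.85 and 5.69 CPM in vehicle mice. Its interval was wide, from -12.3% to 35.0%. Idua, which acts on heparan and dermatan sulfate, had 6.78, 6.97 and 6.76 CPM in nanoplastic mice, against 6.70, 6.07 and 5.95 CPM in vehicle mice. The Idua groups did not overlap by a small margin (edgeR adjusted p = 0.828). In the annotation of the earlier build its exons share bases with Slc26a1 and Dgkq on the opposite strand. Gaa, which degrades glycogen, Hexa, a subunit of beta-hexosaminidase, Man2b1 and Manba, the alpha- and beta-mannosidases, and Naglu, an enzyme of heparan sulfate breakdown, had log2 fold changes between -0.01 and 0.04. Galc, which removes galactose from galactosylceramide, had a log2 fold change of -0.09 (SE 0.07).

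Sulfatases remove sulfate groups from glycosaminoglycans and sulfatide. Of the 5 measured, 4 values were negative and 0 passed, with a median log2 fold change of -0.10, which was -0.02 in deposited TPM (all genes 0.07). Ids, iduronate sulfatase, had 39.2, 38.8 and 44.3 CPM in nanoplastic mice 1, 2 and 3, against 42.98, 44.1 and 46.8 CPM in vehicle mice (log2 fold change -0.13, SE 0.08, edgeR adjusted p = 0.725). Nanoplastic 3 lay within the vehicle range. Arsa, the sulfatidase, was uneven within the nanoplastic group, at 8.85, 6.93 and 5.36 CPM, against 8.34, 8.32 and 7.94 CPM in vehicle mice. Nanoplastic 1 was the highest and nanoplastic 3 the lowest of the 6 libraries. Arsb, Galns and Sgsh, which act on dermatan, keratan and heparan sulfate, stood at log2 fold changes of -0.10 for Arsb (SE 0.08), -0.09 for Galns (SE 0.08) and 0.12 for Sgsh (SE 0.12).

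Of the lipid hydrolases and their helpers, 5 of 6 were negative and 0 passed, with a median log2 fold change of -0.08, which was -0.01 in deposited TPM (all genes 0.07). Smpd1 (ENSMUSG00000037049), acid sphingomyelinase, cleaves sphingomyelin to ceramide. It had 84.02, 84.9 and 83.3 CPM in nanoplastic mice 1, 2 and 3, against 97.9, 102 and 90.1 CPM in vehicle mice. In CPM the nanoplastic mice were close together and all below the vehicle mice. The means were 84.1 ± 0.78 CPM in nanoplastic and 96.6 ± 5.92 CPM in vehicle mice (SD, n = 3 each). The log2 fold change was -0.20 (SE 0.06, edgeR adjusted p = 0.541) and its p ranked 353 of 18092. In deposited TPM Smpd1 had 21.7, 21.3 and 18.5 in nanoplastic mice, against 22.2, 22.2 and 22.6 in vehicle mice. There the nanoplastic group was the wider one, and the log2 fold change was -0.12.

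Asah1, acid ceramidase, acts on the product of Smpd1. It had 86.5, 92.01 and 82.7 CPM in nanoplastic mice 1, 2 and 3, against 95.7, 102 and 87.6 CPM in vehicle mice (log2 fold change -0.13, SE 0.07, edgeR adjusted p = 0.725). Gm2a, the activator that presents GM2 ganglioside to hexosaminidase, had 194, 213 and 178 CPM in nanoplastic mice, against 215, 209 and 213 CPM in vehicle mice. Both overlapped between the groups, and nanoplastic 3 was the lowest library in both. Psap, the precursor of the saposins that help degrade sphingolipids, had 1547, 1519 and 1336 CPM in nanoplastic mice, against 1530, 1381 and 1425 CPM in vehicle mice (95% interval of the change -10.8% to 15.6%). Lipa, the acid lipase, spread widely within the nanoplastic group, with 191, 265 and 227 CPM in nanoplastic mice 1, 2 and 3, against 226, 224 and 237 CPM in vehicle mice. Ppt1, a thioesterase that removes palmitate from proteins, had a log2 fold change of -0.04 (SE 0.06).

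Among the membrane proteins 6 of 9 values were negative and 0 passed, with a median log2 fold change of -0.03, which was 0.01 when scaled by library size alone (all genes 0.05) and 0.03 in deposited TPM (all genes 0.07). Laptm4b (ENSMUSG00000022257), a membrane protein of late endosomes and lysosomes, had 46.7, 42.1 and 39.4 CPM in nanoplastic mice 1, 2 and 3, against 48.5, 51.5 and 45.97 CPM in vehicle mice. Nanoplastic 1 lay above vehicle 3 and the others below every vehicle library (log2 fold change -0.19, SE 0.08, edgeR adjusted p = 0.666). Its paralogue Laptm4a had a log2 fold change of -0.03 (SE 0.08).

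Lamp1 (ENSMUSG00000031447) had 779, 854 and 833 CPM in nanoplastic mice 1, 2 and 3, against 892, 900.0 and 878 CPM in vehicle mice. The groups did not overlap, and the estimated change was -7.6% (95% interval -16.8% to 2.6%). Lamp2, which is also needed for chaperone-mediated autophagy, had 560.3, 592 and 533 CPM in nanoplastic mice, against 598, 620.1 and 585 CPM in vehicle mice. Cd63, a tetraspanin of late endosomes and exosomes, had 149, 149 and 156 CPM in nanoplastic mice, against 164, 165 and 157 CPM in vehicle mice. Lamp2 overlapped at 1 library, nanoplastic 2, and Cd63 did not overlap, by a margin of about 1 CPM. The edgeR adjusted p was 0.734 for Lamp1, 0.766 for Lamp2 and 0.734 for Cd63.

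Ctns, the cystine exporter, and Mcoln1, the lysosomal calcium channel TRPML1, had positive values. Ctns had 21.4, 23.4 and 24.3 CPM in nanoplastic mice 1, 2 and 3, against 20.97, 20.4 and 22.1 CPM in vehicle mice (log2 fold change 0.12, SE 0.08, edgeR adjusted p = 0.757). Mcoln1 had 33.9, 34.8 and 30.8 CPM in nanoplastic mice, against 31.1, 32.5 and 32.1 CPM in vehicle mice (log2 fold change 0.06, SE 0.07). Both overlapped between the groups. Tmem192, a lysosomal membrane protein, and Cln3, which is lost in juvenile neuronal ceroid lipofuscinosis, stood at log2 fold changes of -0.01 for Tmem192 (SE 0.10) and 0.03 for Cln3 (SE 0.11).

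Per transcript length, in deposited TPM averaged over the 6 libraries, the lysosomal transcripts of kidney spanned from 314 TPM for Psap to 1.18 TPM for Gla. Psap was followed by Lamp1 (221 TPM), Ctsl (177), Lamp2 (151), Lgmn (149) and Ctsd (141). Psap, Lamp1 and Ctsl each lay above the next gene without overlap over the 6 libraries, whereas Lamp2 overlapped Lgmn, and Lgmn overlapped Ctsd. Next were Cd63 (94.0), Neu1 (84.9), Ctsh (84.2), Ctsb (83.4) and Ctsa (66.7). From Laptm4a (49.3) to Manba (20.3) each gene overlapped the next. The least abundant after Gla were Idua (1.41), Arsa (1.48), Sgsh (2.12) and Tfe3 (2.18), and Tfeb stood at 4.74 TPM. The 7SL RNA genes Rn7s1 and Rn7s2 took 55.5% to 59.4% of TPM in these libraries, which lowers every other TPM but not the order of genes within a library.

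**Figure D4:**
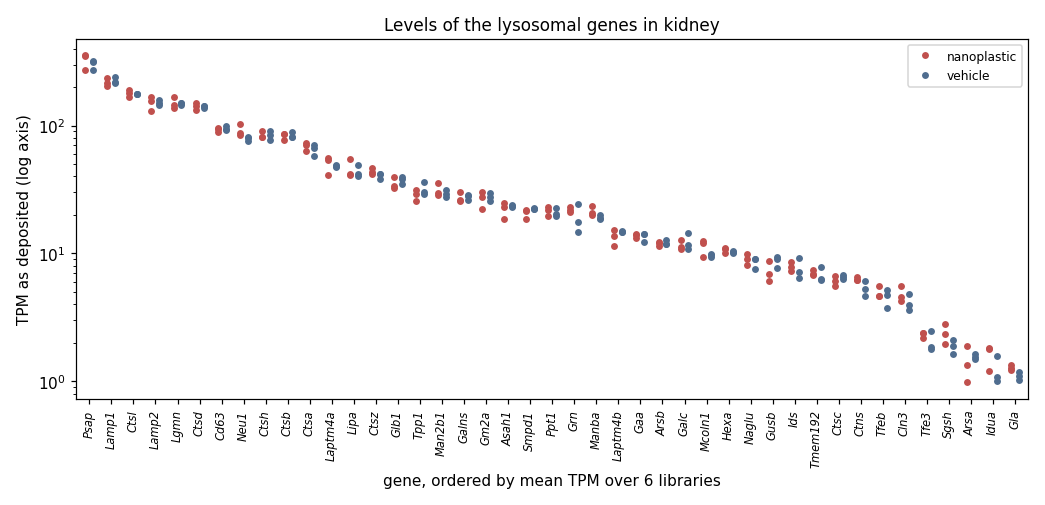
Deposited TPM on a log axis for the 43 genes in each library (3 nanoplastic points left of 3 vehicle points), ordered by mean. Psap, Lamp1 and Ctsl lead, Gla and Idua are lowest, and the points of the groups lie over each other at the scale of the differences between genes.

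Genes of the same pathway outside the set were read from the same fit, and 0 of them passed the test. Of 26 other lysosomal enzymes and transporters 12 were negative, with a median log2 fold change of 0.01. Dpp7, a dipeptidyl peptidase, had 62.4, 66.1 and 66.3 CPM in nanoplastic mice 1, 2 and 3, against 75.4, 76.2 and 65.3 CPM in vehicle mice (log2 fold change -0.16, SE 0.07, edgeR adjusted p = 0.684). Vehicle 3 lay within the nanoplastic range. Ctso, a cysteine protease, had a log2 fold change of -0.11 (SE 0.08). Of 10 genes that tag or carry hydrolases to lysosomes, 6 were negative. Nagpa, which uncovers the mannose 6-phosphate tag, had 8.37, 7.93 and 9.15 CPM in nanoplastic mice, against 11.5, 10.1 and 9.73 CPM in vehicle mice (edgeR adjusted p = 0.611). Sumf1, which activates sulfatases, and Scarb2, the carrier of glucocerebrosidase, both stood at a log2 fold change of -0.11 (SE 0.08).

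Of 20 genes for mTORC1 and the control of TFEB at the lysosome, 12 were negative, with a median log2 fold change of -0.04. Rraga encodes a small GTPase that brings mTORC1 to the lysosome when amino acids are present. It had 11.4, 10.5 and 11.2 CPM in nanoplastic mice 1, 2 and 3, against 13.3, 13.1 and 14.2 CPM in vehicle mice (log2 fold change -0.29, SE 0.09, edgeR adjusted p = 0.541). The groups did not overlap, and its p was close to that of Smpd1. Tfec, another member of the TFEB family, had a log2 fold change of -0.25 (SE 0.10) with overlapping groups, and Lamtor1, a subunit of the complex that anchors these GTPases, of -0.15 (SE 0.08).

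Macrophages are rich in lysosomes, and their markers had lower values in nanoplastic kidneys. Of the markers, 11 of 11 were negative (median log2 fold change -0.22, 0 passing, none at 0). They summed to 126 to 130.4 CPM in nanoplastic mice and 141 to 150 CPM in vehicle mice. Mpeg1, a pore-forming protein of macrophages, had 17.2, 14.9 and 16.3 CPM in nanoplastic mice 1, 2 and 3, against 19.4, 19.5 and 19.2 CPM in vehicle mice (edgeR adjusted p = 0.541). Itgam, an integrin subunit of myeloid cells, had 1.38, 1.38 and 1.56 CPM in nanoplastic mice, against 2.38, 2.08 and 2.12 CPM in vehicle mice (edgeR adjusted p = 0.591). The part of macrophages in the lysosomal values was not tested. The 5 erythrocyte genes were all negative as well, with a median of -0.49 and 0 passing. All 5 had an edgeR unadjusted p under 0.05, against 7.42% of all genes tested. In 2 of the 5 the groups did not overlap, against 12.9% of all genes tested. The erythrocyte list average overlapped between the groups, with vehicle 3 (-0.343) below nanoplastic 1 (-0.297). The part of erythrocytes in the lysosomal values was not tested. Of the 12 proximal tubule markers 8 were negative, with a median of -0.01, and the lowest p belonged to Slc5a12, a lactate transporter, at 0.19 (SE 0.07), and Slc13a3, a dicarboxylate transporter, at -0.19 (SE 0.13). Of the 5 thick limb and distal tubule markers 3 were negative, with a median of -0.05, and the lowest p belonged to Umod at -0.33 (SE 0.11) and Pvalb at -0.18 (SE 0.16). The average of this list did not overlap between the groups (-0.117 to -0.073 in nanoplastic, -0.027 to 0.017 in vehicle mice).

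**Figure D5:**
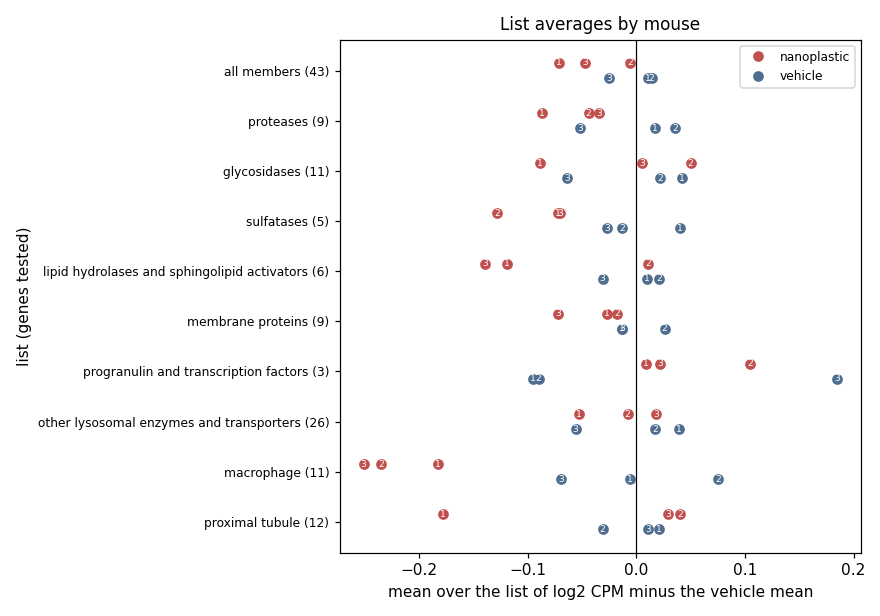
Mean log2 CPM of each list minus the vehicle mean (x axis) in each mouse (numbered points, nanoplastic above vehicle), with the genes tested in brackets. The averages of the 43 genes overlap between the groups, and nanoplastic 1 stands low for proximal tubule markers (-0.178). The macrophage, sulfatase and membrane protein averages of the groups do not overlap. For membrane proteins the margin is small, with nanoplastic 2 at -0.018 and vehicle 1 and vehicle 3 at -0.013.

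Without nanoplastic 1 and vehicle 3, the libraries with fat cell transcripts, the comparison of the remaining 4 libraries called 0 of the 43 genes (0.165% of all 18144 tested), 25 were negative and the median log2 fold change was -0.03. At an unadjusted p under 0.05 there were then 7 of the 43, against 10.0% of all genes tested: Grn (0.33), Laptm4b (-0.29), Gusb (-0.41), Smpd1 (-0.24), Arsa (-0.42), Neu1 (0.16) and Ctns (0.21), with log2 fold changes in brackets. Macrophage markers were negative in 11 of 11 in that comparison too, with a median of -0.29.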

How the data were processed

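RNA from 6 kidneys was measured, 3 from nanoplastic and 3 from vehicle mice. Per the submitters' processing notes, reads were checked with FastQC and handled with Trim Galore 0.6.6, STAR 2.7.9a, RSEM 1.3.3 and GRCm39. Strandedness and the annotation release were not given in the sources used here. Per gene and library the authors deposited expected counts, TPM and FPKM. Deposited FPKM values were not used. Deposited TPM served for levels between genes. Reads divided between overlapping genes are estimates. In a GENCODE annotation of the build before GRCm39, 17 of the 43 genes share exon bases with another gene, 14 of them on the opposite strand only. Overlaps in the annotation used for the counts were not checked.

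Expected counts were rounded to whole numbers, filtered with filterByExpr and scaled by TMM in edgeR 4.0.16 (R 4.3.3), which left 18092 of 31462 genes with a count. The test was the quasi-likelihood F test with group as the term, adjusted by Benjamini-Hochberg over all genes tested at 0.05. Standard errors are the absolute log2 fold change over the root of F, and intervals are 95%. The edgeR step was tested on simulated data. CPM are TMM-scaled. Alternatives used limma 3.58.1 and DESeq2 1.42.0, other scalings, no filter, TPM with a pseudocount of 0.1, each library left out and, chosen after seeing the data, edgeR's older dispersion setting. Symbols came from the annotation for 51884 gene IDs and by transcript for 738. Promoter windows came from RefSeq (GRCm38.p6).

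All 43 genes are named by role. Values in every library are given for the 12 with the lowest unadjusted p and for a fixed set of 18 (Ctsa, Neu1, Glb1, Ctsb, Ctsd, Ctsl, Lgmn, Psap, Gla, Asah1, Lamp1, Lamp2, Cd63, Mcoln1, Ctns, Grn, Tfeb and Tfe3), and for Idua, Arsa and Lipa, picked after their values were seen. Of each pathway list the 3 genes with the lowest p are named, except 1 that is not reported here. The genes and lists were chosen with earlier results of these data known. Marker lists covered macrophage, proximal tubule, thick limb and distal tubule, collecting duct, podocyte, endothelium, adipocyte, urothelium and erythrocyte.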

Additional observations from a re-analysis of the deposited data

How the results depend on the processing

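Of the 43 genes 0 were called in the main comparison and in each of 15 alternatives. Over all genes DESeq2 called 55, leaving out 1 library at a time called 0 to 10 (10 without nanoplastic 1), and leaving out vehicle 3 and nanoplastic 1 together called 30. In TPM 17 of the 43 values were negative, and 27 to 30 with 1 library left out. The median of the 43 was 0.00 scaled by library size and 0.04 in TPM, where the median of all genes was 0.05 and 0.07, and -0.08 to -0.02 with 1 library left out. In TPM the medians were 0.01 for proteases, 0.08 for glycosidases, -0.02 for sulfatases, -0.01 for lipid hydrolases and 0.03 for membrane proteins. With 1 library left out they ran from -0.15 to -0.05 for lipid hydrolases (-0.15 without nanoplastic 2) and from -0.07 to -0.03 for membrane proteins, which had 0.01 scaled by library size and -0.08 without both libraries. Of the 43 signs 11 turned in TPM and 7 by library size. Among the 24 genes with fixed or lowest-p naming they turned in TPM for Ctsa (0.09), Ctsd (0.01), Ctsl (0.02), Lgmn (0.02), Ids (0.07) and Tfe3 (0.18), and by library size for Ctsa (0.04) and Lgmn (0.00). With 1 library left out Ctsa ran from -0.02 to 0.02, Lgmn from -0.10 to 0.02, Psap from -0.02 to 0.08, Tfeb from -0.01 to 0.11 and Tfe3 from -0.17 to 0.01. Without both libraries Psap had -0.02 and Tfe3 0.02. The median of all genes also rose, from 0.01 in the main fit to 0.05 by library size and 0.07 in TPM. In TPM Ids (from -0.13 to 0.07) and Tfe3 (from -0.11 to 0.18) moved further than that median. The cause of the shifts of single genes was not tested. With the replicate block 0 genes were called, 28 of the 43 were negative and the median was -0.04. Same-numbered libraries correlated at 0.0436, -0.023 and 0.103 in their deviations from the group means, and the other pairs at -0.122 to 0.0763. Deviations within a group sum to 0, so these values cannot decide whether same-numbered libraries share more than a number.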

Other observations

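The ratio of Neu1 to Glb1, computed after their values were seen, was 2.91, 2.85 and 2.82 in nanoplastic mice 1, 2 and 3, against 2.31, 2.38 and 2.26 in vehicle mice 1, 2 and 3, in CPM. The groups lay apart with a small spread in each, and no test was made because the pair was chosen for its values. The ratio of Neu1 to Ctsa, the third member of the complex, was 2.17, 2.57 and 2.29 in nanoplastic mice, against 2.11, 2.15 and 2.05 in vehicle mice. Sort1, a receptor that carries hydrolases to lysosomes, had 72.8, 51.3 and 53.1 CPM in nanoplastic mice, against 56.4, 52.9 and 51.2 CPM in vehicle mice, and only nanoplastic 1 stood high.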
